A study of Mus musculus with 48 samples.

Results

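Accessibility around the cell-cycle inhibitors that are used as senescence markers, and around Trp53 and Mdm2, was followed in tumour-infiltrating CD8+ T cells. The members were the peaks that overlapped the protein-coding body of Cdkn1a, Cdkn1b, Cdkn2a, Cdkn2b, Cdkn2c, Cdkn2d, Trp53 or Mdm2. A peak over several genes went to the gene with a boundary nearest its middle, and a peak outside all genes went to the nearest body within 100000 bp. The rule found 35 of the 53868 peaks: 7 at Cdkn1a, 5 at Cdkn1b, 4 at Cdkn2a, 9 at Cdkn2b, 3 at Cdkn2c, 1 at Cdkn2d, 1 at Trp53 and 5 at Mdm2. Of these, 11 overlapped a body of their gene and 24 lay outside it, so most assignments rest on distance alone. Peaks are named by gene and numbered along the chromosome, and coordinates are those of the deposited table (GRCm38, mm10).

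ATAC-seq cuts open chromatin with a transposase, so a peak's value counts how often that stretch was accessible. All donor cells were CD8+ T cells of OT-1 mice, whose T-cell receptor sees ovalbumin, with Cas9 and the CD45.1 marker. They were transduced with a lentivirus that carries 1 guide RNA and an ametrine reporter, sorted for ametrine, transferred into young or aged mice 1 day before B16-OVA melanoma inoculation and recovered from the tumours 15 days after it. The guide targeted Zfp219, which encodes a zinc-finger protein, or Dusp5, which encodes a nuclear phosphatase of ERK, and the control is labelled OTC. The hosts' ages in months, and what OTC stands for, are not given in the sources used here. Cells were sorted into progenitor exhausted (Tprog, Slamf6+ Tim-3-), transitory effector-like (Ttran, Slamf6+ Tim-3+) and terminally exhausted (Tterm, Slamf6- Tim-3+) states. A further state, called age-associated dysfunctional (Ttad, Slamf6- Tim-3-), was collected in aged hosts only. Each of the 3 guides was thus sampled in 4 states in aged hosts and 3 states in young hosts, which gave 21 groups and 48 libraries, with 2 libraries in 15 groups and 3 in 6 groups. Cells of several mice were pooled into each library, so the spread between libraries is a spread between pools. A sorted population is bulk material: fewer cells with an open site and less opening per cell cannot be told apart.

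Cyclin-dependent kinases drive entry into the cell cycle by phosphorylating the retinoblastoma protein. Cdkn2a, Cdkn2b, Cdkn2c and Cdkn2d encode INK4 proteins, which bind CDK4 and CDK6. Cdkn1a encodes p21 and Cdkn1b encodes p27, which bind cyclin-CDK complexes. Cdkn2a also encodes ARF from an upstream start in another reading frame. ARF holds back MDM2, the ubiquitin ligase that degrades p53, and p53 in turn activates Cdkn1a and Mdm2. Lasting expression of p16 (from Cdkn2a) and p21 is a widely used mark of senescence, and in T cells p27 is a brake on division that is lost after stimulation.

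The sequences upstream of 6 transcription starts are shown because the results turn on the peaks that cover 5 of them, and the remaining one has no peak. Each is the 250 bases before a start annotated by RefSeq on GRCm38.p6, written 5′ to 3′ on the gene's strand. Capitals mark matches, on either strand, to GGGCGG (GC box), TGACGTCA (cyclic-AMP response element), ATTGG or its reverse complement (CCAAT box), a pair of CATG cores with 6 bases between them (as in a p53 element), TGANTCA (AP-1), TTTCGCGC and TTTGGCGC (E2F). No marked matches overlap each other, and a match is a description of the letters only. The upstream start of Cdkn1a (chr17:29090729-29090978, + strand) lies under no peak:
Cdkn1a upstream start: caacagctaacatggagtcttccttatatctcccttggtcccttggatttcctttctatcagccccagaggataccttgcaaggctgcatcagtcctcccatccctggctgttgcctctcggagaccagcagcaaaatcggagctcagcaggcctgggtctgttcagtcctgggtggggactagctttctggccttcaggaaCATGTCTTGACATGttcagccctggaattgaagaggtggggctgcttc
The downstream start of Cdkn1a (chr17:29093519-29093768, + strand) lies in Cdkn1a_4, and the Cdkn1b start (chr6:134920151-134920400, + strand) in Cdkn1b_2:
Cdkn1a downstream start: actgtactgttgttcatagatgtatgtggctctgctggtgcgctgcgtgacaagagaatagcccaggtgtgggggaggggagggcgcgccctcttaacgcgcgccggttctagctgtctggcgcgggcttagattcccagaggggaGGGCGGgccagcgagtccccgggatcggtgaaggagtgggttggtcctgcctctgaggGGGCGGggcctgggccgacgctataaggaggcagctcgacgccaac
Cdkn1b start: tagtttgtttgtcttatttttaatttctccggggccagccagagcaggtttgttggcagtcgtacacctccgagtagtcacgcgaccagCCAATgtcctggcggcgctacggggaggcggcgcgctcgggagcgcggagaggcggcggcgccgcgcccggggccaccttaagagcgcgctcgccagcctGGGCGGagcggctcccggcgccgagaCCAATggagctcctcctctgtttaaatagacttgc
The ARF-side start of Cdkn2a (chr4:89294620-89294869, - strand) lies in Cdkn2a_4, the INK4A-side start (chr4:89282193-89282442, - strand) in Cdkn2a_3 and the Cdkn2b start (chr4:89311033-89311282, - strand) in Cdkn2b_2:
Cdkn2a ARF-side start: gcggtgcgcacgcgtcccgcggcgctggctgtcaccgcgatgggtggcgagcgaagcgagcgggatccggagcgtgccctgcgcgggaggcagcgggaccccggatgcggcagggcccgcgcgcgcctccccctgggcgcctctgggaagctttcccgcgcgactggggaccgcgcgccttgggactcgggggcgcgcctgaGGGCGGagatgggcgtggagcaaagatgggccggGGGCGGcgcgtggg
Cdkn2a INK4A-side start: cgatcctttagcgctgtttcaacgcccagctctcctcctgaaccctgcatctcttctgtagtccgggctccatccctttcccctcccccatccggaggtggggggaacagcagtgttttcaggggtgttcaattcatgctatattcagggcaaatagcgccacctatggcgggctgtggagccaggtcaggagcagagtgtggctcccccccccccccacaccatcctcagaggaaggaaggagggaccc
Cdkn2b start: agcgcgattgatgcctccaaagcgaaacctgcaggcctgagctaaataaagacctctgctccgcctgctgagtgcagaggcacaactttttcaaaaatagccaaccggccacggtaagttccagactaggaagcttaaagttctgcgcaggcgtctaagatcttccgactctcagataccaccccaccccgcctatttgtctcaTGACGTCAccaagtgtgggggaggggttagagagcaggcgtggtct

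These windows differed widely in base composition. The ARF-side window held 40 CG dinucleotides and the INK4A-side window 7, against a median of 6 over the 32817 mouse windows of the same length. The Cdkn1b window held 28, the downstream Cdkn1a window 19, the Cdkn2b window 12 and the upstream Cdkn1a window 2. GGGCGG is in 32.7% of all windows, and it occurs 2 times in the ARF-side window, 2 times in the downstream Cdkn1a window and 1 time in the Cdkn1b window. The CCAAT box is in 33.8% of windows and occurs 2 times at Cdkn1b. TGACGTCA is in 1.55% of windows, the Cdkn2b window among them. The spaced CATG pair is in 0.488% of windows, and at Cdkn1a it stands upstream of the start that has no peak. TGANTCA (6.75% of windows), TTTCGCGC (0.256%) and TTTGGCGC (0.417%) were not matched in these 6 windows.

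Depth ranged from 5638413 to 16159054 reads in peaks in aged-host libraries and from 6589023 to 29942755 in young-host libraries. No libraries were identical. All 7 CD8 T-cell marker genes had peaks over their bodies, with a summed signal of 7589 to 9835 normalized reads per library. No body peak was found at Tyr, Dct, Tyrp1 or Sox10 (melanoma), Lyz2, Csf1r or Adgre1 (macrophage), Foxp3 (regulatory T cell), Ncr1 (NK cell), or Col1a2 or Cdh5 (fibroblast or endothelium). Other genes of these lists did have body peaks: 3 of 7 melanoma genes, with a summed signal of 719.5 to 1405.5 normalized reads per library, and 3 of 6 macrophage genes, with 1034 to 1561. The sums were 142 to 517 for 1 of 2 regulatory T-cell genes, 0 to 33.1 for 1 of 2 NK genes and 2693 to 3866 for 2 of 4 fibroblast or endothelium genes. At the guides' own loci, each guide was compared with OTC within single states. None of 14 tests at the 2 Zfp219 peaks was called, where 5.1% of such tests over all peaks were. At the 17 Dusp5 peaks 6 of 119 tests were called, all lower, against 1.9% over all peaks. Peak counts do not read small insertions or deletions.

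All 8 genes had an accessible start in every group, but the starts differed in level and in how far they moved. Values are reads per peak divided by a size factor for each library (normalized reads), and a level is the mean over the libraries of a group. The Cdkn2d start (Cdkn2d_1) was the strongest member, with a mean of 1711 normalized reads over the 48 libraries, at the 99.3 percentile of all peaks. The Trp53 start had a mean of 1276, Cdkn1a_4 of 1137, Cdkn1b_2 of 992, Cdkn2c_3 of 822 and Mdm2_3 of 715. The starts on the Ink4 locus of chromosome 4 were weaker: 345 at the Cdkn2b start, 297 on the ARF side and 78.2 on the INK4A side of Cdkn2a. Peaks differ in width, so these means do not rank the starts by accessibility per base. The median member had 135 normalized reads, against 93.9 over all peaks.

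Among the starts, those of Cdkn1b, Cdkn2d and Trp53 had the narrowest ranges over groups and those of Cdkn2a and Cdkn2b the widest. The highest group mean was 1.25 times the lowest at Cdkn1b_2, 1.32 times at Cdkn2d_1, 1.37 times at Trp53_1, 1.46 times at Cdkn2c_3 and 1.48 times at Mdm2_3. It was 1.70 times the lowest at Cdkn1a_4, 2.02 times at Cdkn2b_2, 2.49 times at Cdkn2a_4 and 3.17 times at Cdkn2a_3. Peaks outside the starts spread widely on this measure, from 1.23 times at Cdkn1b_3 to 12.6 times at the faint Cdkn2c_1. Between them lay 2.27 times at Cdkn2b_3, 3.49 times at Cdkn2b_9 and 5.21 times at Cdkn2b_5. Cdkn1a_6 has no such ratio, because its lowest group mean was 0. In the order of the 21 group means, neighbouring groups mostly overlapped in their libraries, so the order is read only from end to end. Of the 20 neighbouring pairs, 18 overlapped at Cdkn1a_4, 18 at Cdkn2b_3, 17 at Cdkn2a_4, 19 at Cdkn1b_2, and all 20 at Cdkn2b_2, Cdkn2d_1 and Trp53_1. At the distal Cdkn2b_3, the start peak Cdkn2b_2 and the INK4A-side start, the 5 lowest groups were Tprog groups. At Cdkn2b_2 the 5 highest were Tterm groups. At Cdkn1b_2 the ends of the order mixed the states: Dusp5 Tprog of aged hosts was highest and OTC Ttran of aged hosts lowest. At Cdkn2d_1 the highest was OTC Ttran of aged hosts and the lowest Dusp5 Ttad. At Trp53_1 they were Zfp219 Ttad and Dusp5 Tterm, both of aged hosts.

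Cdkn1a_6 was the faintest member, with a mean of 5.58 normalized reads and no read in 6 libraries. The other 34 members had reads in every library.

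**Figure D1:**
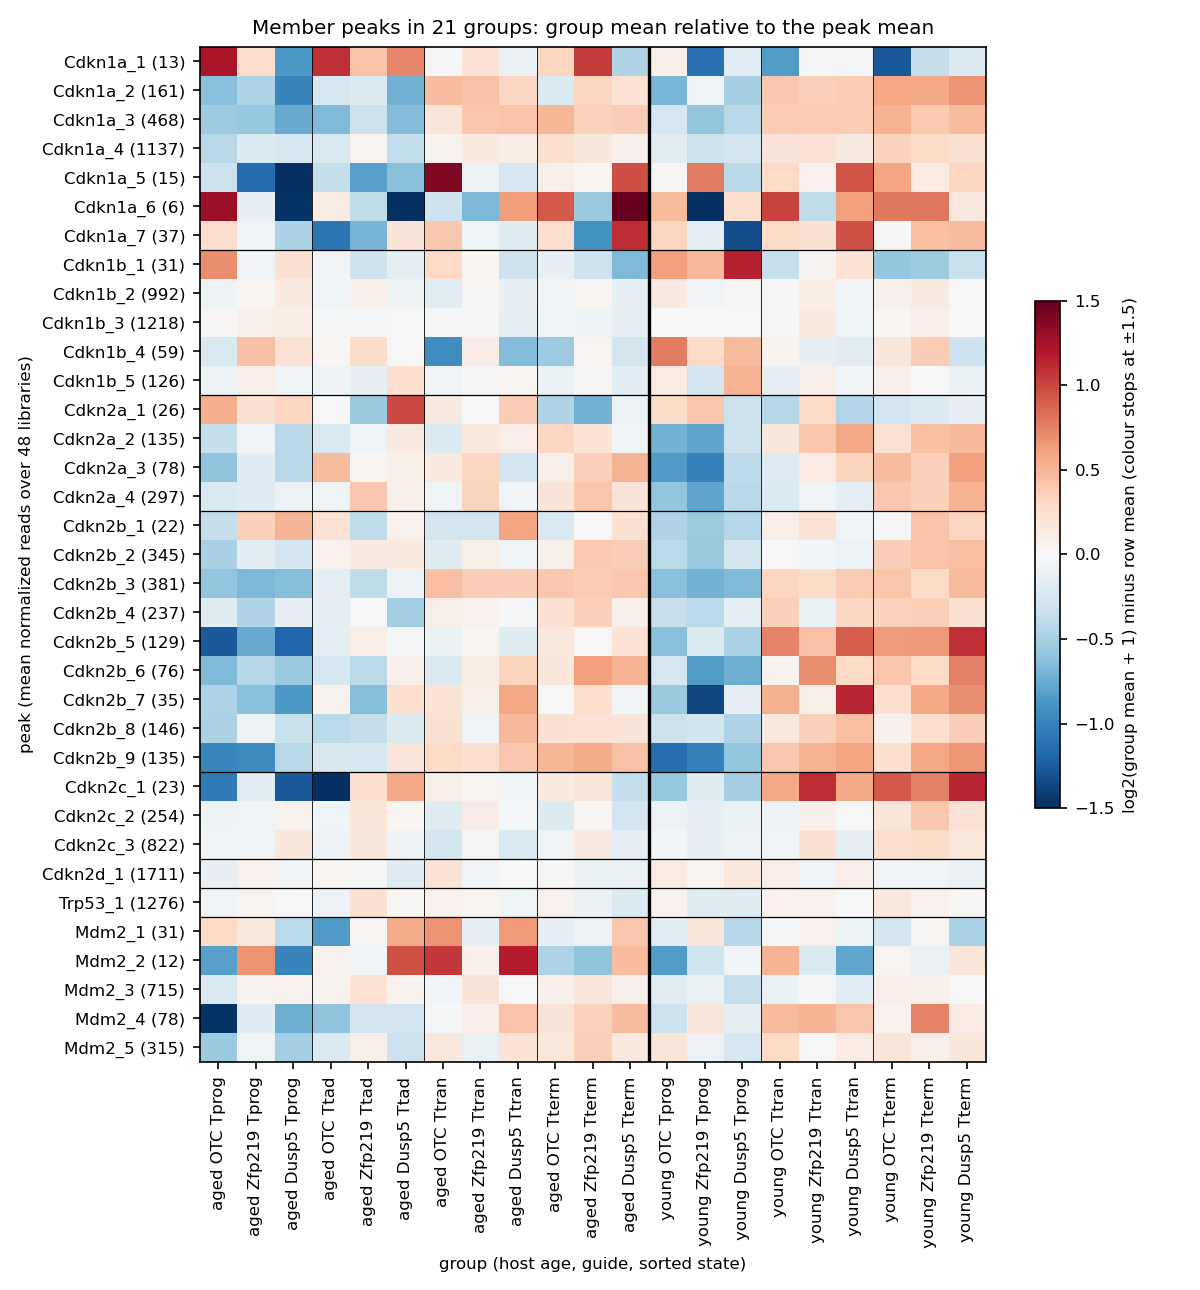
Each row is a member peak and each column 1 of the 21 groups; colour gives the log2(group mean + 1) minus the peak's mean over groups. The Tprog columns are low at Cdkn1a_3, Cdkn1a_4 and most Cdkn2b peaks, while the rows of Cdkn1b_2, Cdkn1b_3 and Trp53_1 are nearly flat.

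Progenitor exhausted and terminally exhausted cells differed at the Cdkn1a and Ink4 loci, with lower accessibility in progenitors. In OTC libraries the p27 start gave no call. Differences were tested with limma on log2(value + 1), with p-values adjusted by Benjamini-Hochberg over all 53868 peaks and a threshold of 0.05. A log2 difference on this scale understates the change of weak peaks. In aged OTC hosts 11 of the 35 members were lower in Tprog than in Tterm and none was higher. Of all peaks, 20.1% were called in that comparison and 11.2% were lower. In young OTC hosts 14 members were lower and 2 higher, where 26.5% of all peaks were called. The median member was at a log2 difference of -0.41 in aged and -0.41 in young hosts, against 0.01 over all peaks in aged hosts. Peaks of the fibroblast or endothelium list moved with them: of 16 peaks assigned to 3 of its genes, 0 were higher and 9 lower in aged Tprog (median -0.40), and 1 was higher and 6 lower in young Tprog (median -0.24). Of 44 peaks of the CD8 T-cell list, 6 were higher and 5 lower in aged Tprog. The part of other cell types in the members' differences was not tested. Among peaks with a mean of at least 50 normalized reads, 11 of 24 members were called in aged hosts (25.2% of such peaks) and 14 of 24 in young hosts (32.4%).

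At the Cdkn1a locus, the start peak Cdkn1a_4 (chr17:29093536-29095888) was lowest in progenitors. In aged OTC hosts the libraries stood at 837 and 813 normalized reads in Tprog and at 1307 and 1299 in Tterm. In young OTC hosts they stood at 1070 and 893 in Tprog and at 1358, 1434 and 1402 in Tterm. No Tprog library reached the level of a Tterm library. The log2 difference, Tprog minus Tterm, was -0.66 (SE 0.09, limma adjusted p = 1e-08) in aged hosts. It was -0.51 (SE 0.08, limma adjusted p = 5.1e-07) in young hosts.

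A peak 8419 bp upstream of the Cdkn1a body, Cdkn1a_3 (chr17:29080815-29082560), separated the states more widely. It had 334 and 255 normalized reads in aged Tprog and 577 and 640 in aged Tterm. In young hosts it had 312 and 412 in Tprog and 657, 617 and 577 in Tterm. The Tprog libraries were again all below the Tterm libraries. The log2 difference was -1.06 in aged hosts (SE 0.13, limma adjusted p = 4.4e-10) and -0.78 in young hosts (SE 0.12, limma adjusted p = 1.6e-07). Farther upstream, over the long noncoding gene Trp53cor1, Cdkn1a_2 (chr17:29078355-29079321) had 102 and 78.7 in young Tprog and 236, 193 and 231 in young Tterm. That difference was called (-1.28, SE 0.19, limma adjusted p = 8.2e-08). In aged hosts the same peak stood at 96.2 and 92.3 in Tprog against 138 and 114 in Tterm and was not called. The 4 remaining Cdkn1a peaks had means of at most 37.1 normalized reads, and none of them was called between Tprog and Tterm in OTC libraries.

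Cdkn2b held several of the called distal peaks. Its start peak, Cdkn2b_2 (chr4:89310224-89311448), had 249 and 225 normalized reads in aged Tprog and 369 and 331 in aged Tterm (log2 difference -0.56, SE 0.17, limma adjusted p = 0.009). In young hosts it had 271 and 229 in Tprog and 444, 490 and 357 in Tterm (-0.77, SE 0.15, limma adjusted p = 3.1e-05). Tprog lay below Tterm without overlap in both kinds of host. The aged call was lost without OTC Tprog replicate 2 or Tterm replicate 1.

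Cdkn2b_3 (chr4:89350574-89352181) lies 39542 bp upstream of the Cdkn2b body, inside the long noncoding gene Gm12610, as do all peaks from Cdkn2b_3 to Cdkn2b_9. It had 214 and 252 normalized reads in aged Tprog, 473 and 463 in aged Tterm, 234 and 221 in young Tprog and 460.1, 481 and 468 in young Tterm. The Tprog libraries thus held about the same level in both hosts, far below Tterm. The log2 difference was -1.01 in aged hosts (SE 0.15, limma adjusted p = 1e-07) and -1.04 in young hosts (SE 0.14, limma adjusted p = 1.7e-09). Cdkn2b_9 (chr4:89399833-89400868), 88801 bp from the body, had 57.7 and 63.0 in aged Tprog against 216 and 126 in aged Tterm (-1.43, limma adjusted p = 8.4e-07). Its values were 63.8 and 45.3 in young Tprog against 152, 146 and 129.9 in young Tterm (-1.39, limma adjusted p = 1.4e-07). Cdkn2b_5 (chr4:89368908-89369728) fell as well, by 1.57 on the log2 scale in aged hosts and by 1.26 in young hosts. Cdkn2b_8 was lower in aged hosts only by the test (-0.73, limma adjusted p = 0.037), and Cdkn2b_4 in young hosts only by the test (-0.72, limma adjusted p = 0.00094). The aged call at Cdkn2b_8 was lost without Tprog replicate 2, Tterm replicate 1 or Tterm replicate 2. The young call at Cdkn2b_4 was lost without Tprog replicate 1, where the difference came to -0.42 (limma adjusted p = 0.19). Whether these effects differed between hosts was not tested.

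At Cdkn2a, the ARF-side start peak Cdkn2a_4 (chr4:89294271-89295921) also covers the start of the noncoding gene Gm12610 on the opposite strand. Its value therefore does not belong to the ARF start alone. It had 192 and 186 normalized reads in young Tprog and 358, 329 and 444 in young Tterm. The log2 difference of -0.98 was called (SE 0.15, limma adjusted p = 7.6e-08). In aged hosts the libraries stood at 222 and 266 in Tprog and 349 and 302 in Tterm, a difference of -0.42 that missed the threshold (limma adjusted p = 0.056). The INK4A-side start Cdkn2a_3 (chr4:89281698-89282847) had 31.5 and 48.8 in young Tprog against 102, 104 and 97.3 in young Tterm (-1.34, limma adjusted p = 9.8e-05). In aged hosts it had 34.0 and 61.2 in Tprog against 62.1 and 93.5 in Tterm, and the difference of -0.73 was not called (limma adjusted p = 0.087). Cdkn2a_2 (chr4:89272332-89274068), 405 bp past the 3′ end of the body, was lower in Tprog in both hosts (-0.66 in aged and -0.95 in young). In aged hosts that call was lost when any 1 of the 4 libraries was left out, and in young hosts without Tprog replicate 1. The ARF-side and INK4A-side peaks are also close neighbours of Cdkn2b on the same chromosome, and the peak table does not tell which gene a site acts on.

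**Figure D2:**
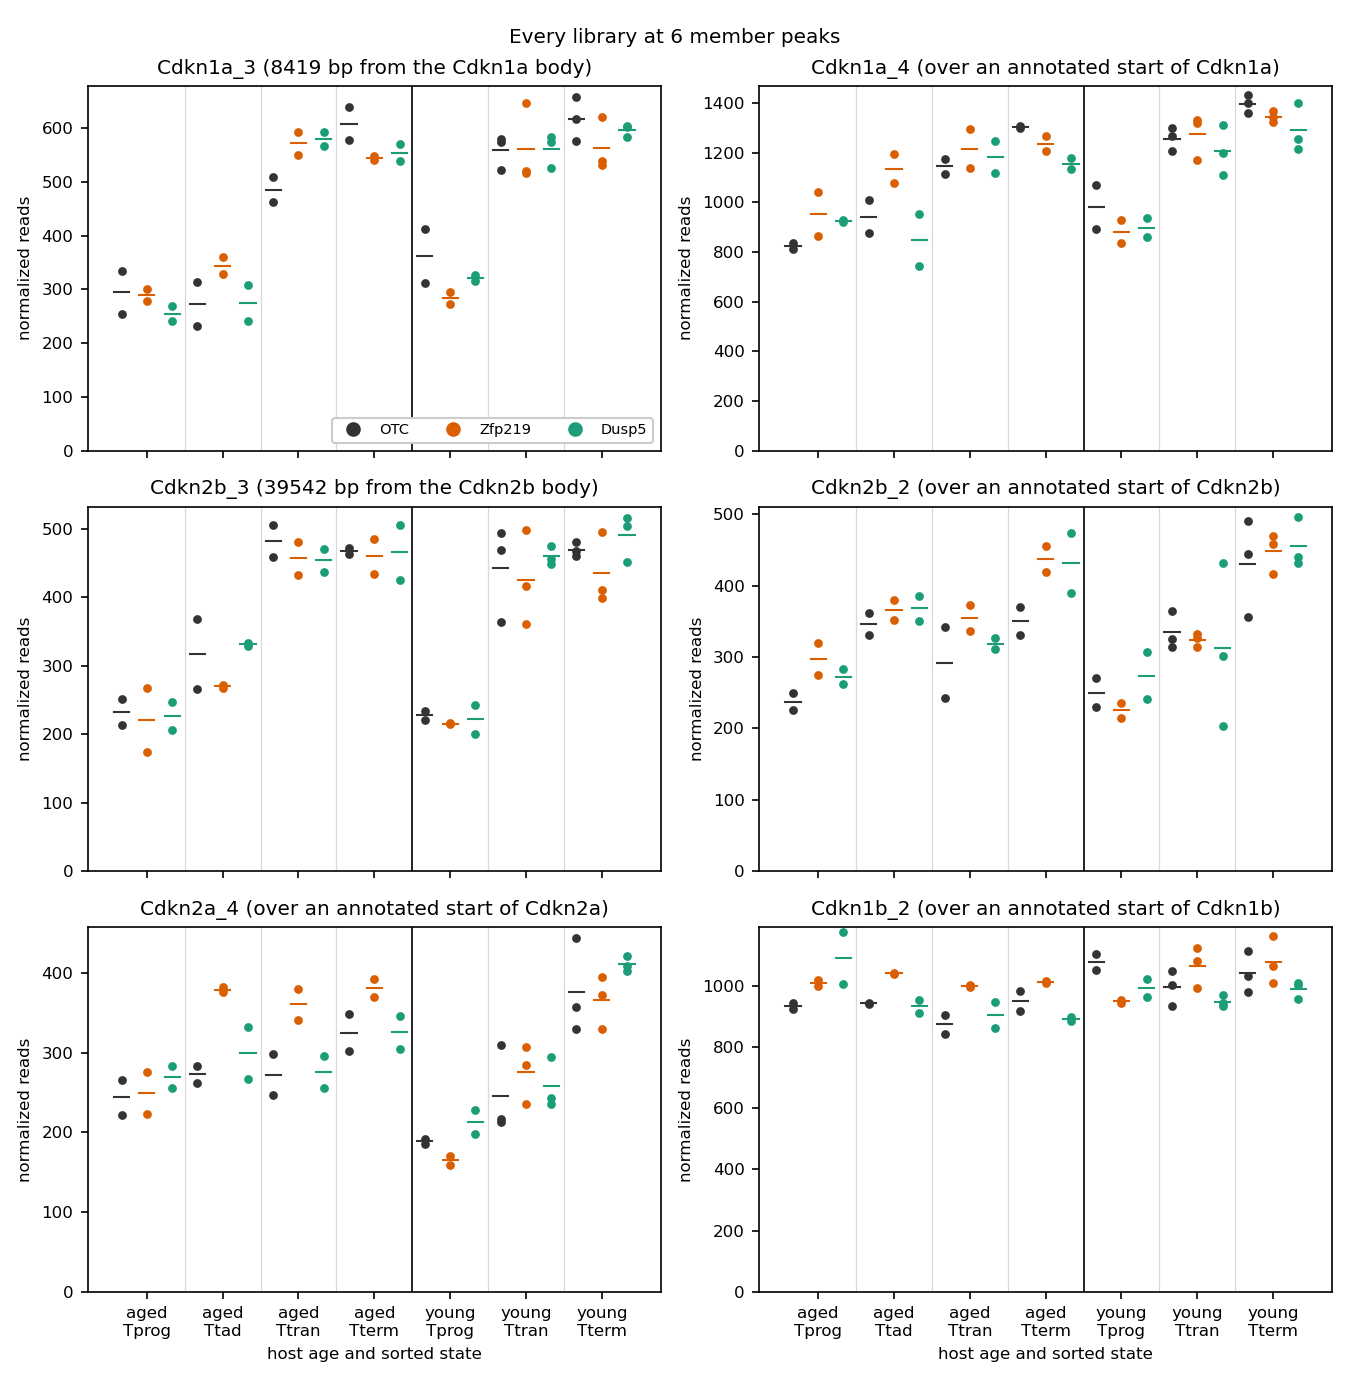
Normalized reads of every library at 6 member peaks, with groups on the horizontal axis; each point is a library, coloured by guide, and short lines give group means. At Cdkn1a_3, Cdkn1a_4, Cdkn2b_2, Cdkn2b_3 and Cdkn2a_4 all 12 Tprog libraries lie below all 15 Tterm libraries, while at Cdkn1b_2 the states overlap.

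At their starts, the remaining inhibitors differed less between these states. At Cdkn1b_2 (chr6:134919944-134921764), the p27 start, aged OTC libraries had 943 and 925 normalized reads in Tprog and 984 and 919 in Tterm. The young ones had 1052 and 1105 in Tprog and 1033, 979 and 1116 in Tterm. The groups overlapped, and the log2 differences of -0.03 and 0.05 were not called. Cdkn1b_3 (chr6:134926956-134929373), 1431 bp past the gene over the start of the noncoding gene Lockd, gave 0.08 and -0.02, also not called. A faint peak upstream, Cdkn1b_1, was the exception at this gene, with 44.4 and 49.6 in young Tprog against 21.5, 13.4 and 24.7 in young Tterm (1.24, SE 0.43, limma adjusted p = 0.023). The Cdkn2c start Cdkn2c_3 (chr4:109665093-109667520) had 798 and 779 in young Tprog and 952, 954 and 954 in young Tterm (-0.27, limma adjusted p = 0.0085). In aged hosts its values were 799 and 768 against 772 and 800.05, which overlap. The faint distal Cdkn2c_1 was lower in young Tprog (-1.71, limma adjusted p = 0.014), a call lost without Tprog replicate 2 or Tterm replicate 3. The Cdkn2d start Cdkn2d_1 (chr9:21290784-21291846) went the other way in young hosts, with 1865 and 1864 in Tprog and 1623, 1641 and 1728 in Tterm (0.16, limma adjusted p = 0.045). Leaving out single libraries ended the young call at Cdkn2d_1 in 4 of 5 fits (limma adjusted p up to 0.16), at Cdkn1b_1 in 3 of 5 and at Cdkn2c_3 without Tprog replicate 2.

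Trp53 and Mdm2 differed from each other. The Trp53 start (chr11:69578916-69581930), a bidirectional peak shared with Wrap53, had 1261 and 1180 normalized reads in aged Tprog and 1357 and 1292 in aged Tterm. The log2 difference was -0.12 in aged and -0.09 in young hosts, and neither was called. The Mdm2 start Mdm2_3 (chr10:117709154-117711307) had 617 and 611 in aged Tprog against 738 and 768 in aged Tterm (-0.29, SE 0.10, limma adjusted p = 0.025). In young hosts it had 579.6 and 696 against 736, 823 and 734 (-0.27, limma adjusted p = 0.021). The aged call at Mdm2_3 was lost when any 1 of the 4 libraries was left out. The young call was lost without Tprog replicate 1 or Tterm replicate 2, with a difference of as little as -0.13 (limma adjusted p up to 0.47). Upstream of Mdm2, Mdm2_4 (chr10:117715201-117715466), 4443 bp from the gene, had 14.7 and 35.5 in aged Tprog and 90.4 and 73.3 in aged Tterm. That log2 difference of -1.78 (SE 0.34, limma adjusted p = 3e-05) was the lowest of any member in aged hosts. Mdm2_5 (chr10:117720816-117721998), 10058 bp away, was also lower in aged Tprog (-0.74, limma adjusted p = 0.00016), a call lost without Tprog replicate 1. Neither Mdm2_4 nor Mdm2_5 was called in young hosts.

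**Figure D3:**
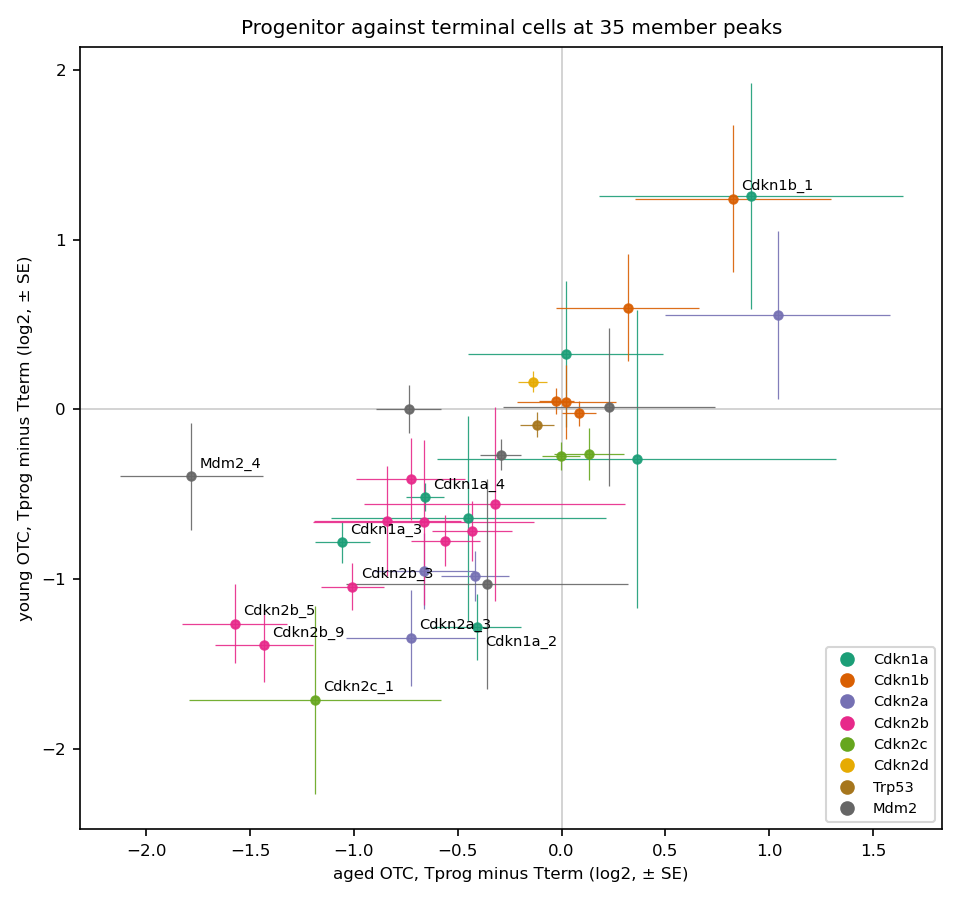
Log2 difference, Tprog minus Tterm, in aged hosts against the same in young hosts for the 35 member peaks in OTC libraries, with standard errors as bars. Most called peaks lie in the lower left, with Cdkn2b_3 at -1.01 and -1.04 and Cdkn1b_2 near 0 on both axes.

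The same contrast was available in the Zfp219 and Dusp5 libraries of both hosts, which gives 6 repeats with separate libraries. Cdkn1a_3, Cdkn1a_4, Cdkn2b_2, Cdkn2b_3, Cdkn2b_5 and Cdkn2b_9 were lower in Tprog in all 6 repeats, where 3.29% of all peaks were. No member was called higher in all 6. The faint Cdkn1b_1 had a positive difference in all 6, between 0.20 and 1.59, and was called higher in 2 of them. With the Zfp219 guide, 11 members were called in aged hosts (18.8% of all peaks) and 18 in young hosts (26.8%), all lower in Tprog. With the Dusp5 guide, 18 were called in aged hosts (22.9%) and 22 in young hosts (29.8%). In both kinds of Dusp5 host 4 members were higher in Tprog. In young ones these were Cdkn2d_1 (0.25), Cdkn1b_5 (0.62), Cdkn1b_4 (0.81) and Cdkn1b_1 (1.59). In aged ones Cdkn1b_2 was higher in Tprog by 0.29 (SE 0.08, limma adjusted p = 0.0075), Cdkn1b_3 by 0.26, Cdkn2c_3 by 0.29 and Trp53_1 by 0.22. In young hosts Cdkn2c_3 went the opposite way, with -0.41 under Zfp219 and -0.25 under Dusp5, and so did Trp53_1, with -0.25 and -0.20. The direction at Cdkn2c_3 and Trp53_1 thus varied among these calls. Whether the state difference itself differed by host or guide was not tested. The ARF-side start Cdkn2a_4, which missed the threshold in aged OTC hosts, was lower in Tprog in aged Zfp219 hosts (-0.62, limma adjusted p = 0.0028). It was lower in young hosts under both guides, with -1.14 for Zfp219 and -0.95 for Dusp5.

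Members outside these made a looser pattern. Cdkn2b_6 was lower in Tprog in the 4 guide repeats (-1.07 in both aged ones, -1.16 and -1.53 in the young ones) and was not called with OTC. Cdkn1b_5 and Cdkn2c_2 were each called in 1 repeat, and Cdkn1a_1, Cdkn2a_1 and Cdkn2b_1 in none. Over guides, all 12 Tprog libraries lay below all 15 Tterm libraries at Cdkn1a_3, Cdkn1a_4, Cdkn2a_4, Cdkn2b_2, Cdkn2b_3 and Cdkn2b_9, and 2.6% of all peaks showed that order. At Cdkn1a_3 the aged Tprog libraries of the 3 guides ran from 241 to 334 normalized reads around a median of 273, and the aged Tterm libraries from 538 to 640 around 559. At Cdkn2b_3 the young Tprog libraries ran from 201 to 243 around a median of 219, and the young Tterm libraries from 399 to 516 around 468.

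**Figure D4:**
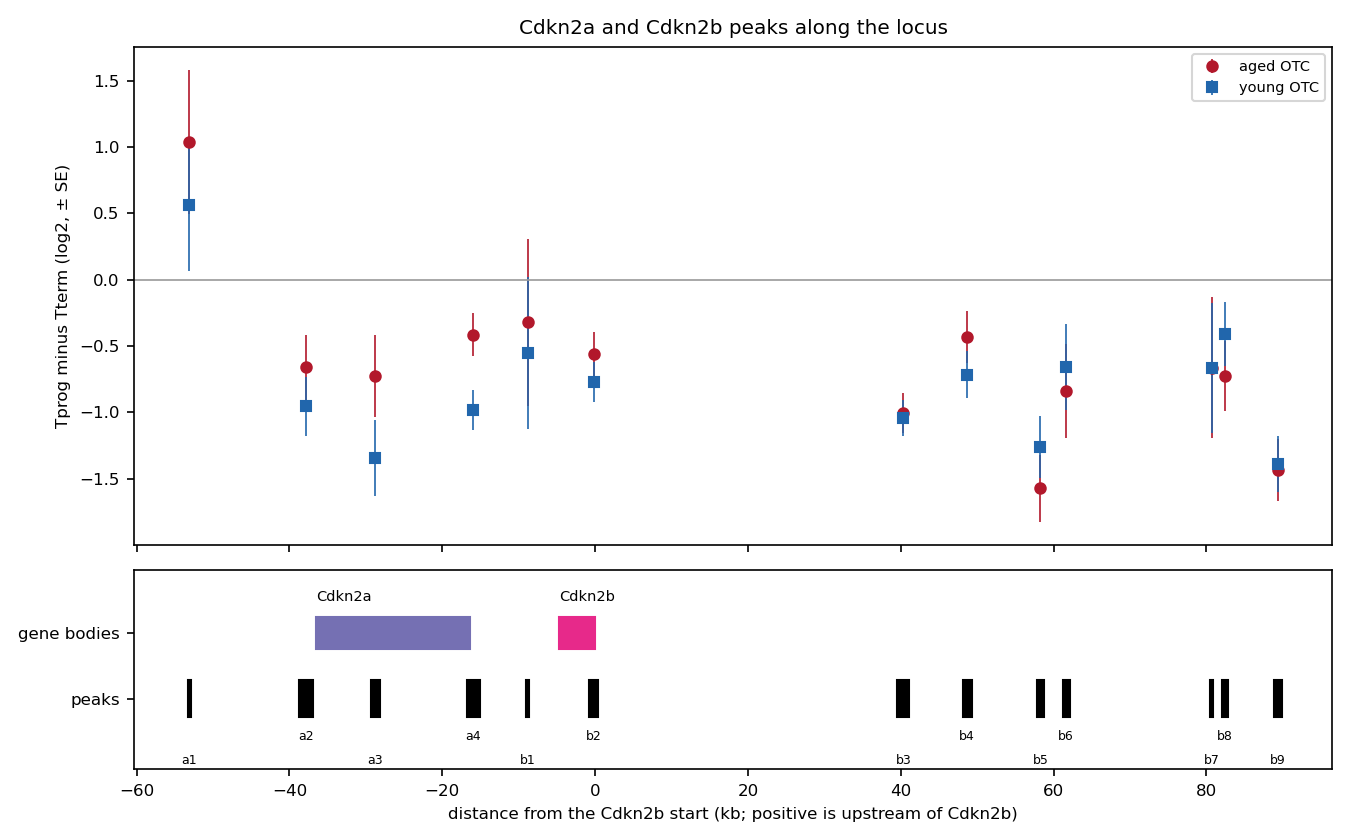
Cdkn2a and Cdkn2b peaks by distance in kb from the Cdkn2b start, positive upstream of it, with the log2 difference Tprog minus Tterm in aged and young OTC hosts on the vertical axis. Values are below 0 at the starts and at the distal peaks b3, b5, b8 and b9, lowest at b5 in aged hosts with -1.57, while the faint peak a1 lies above 0 without a call.

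Transitory effector-like cells stood above progenitors at the Cdkn1a start, at the upstream Cdkn1a_2 and Cdkn1a_3 and at the distal Cdkn2b_3, Cdkn2b_5 and Cdkn2b_9 in both kinds of OTC host. Against Tprog, 11 members were higher in aged Ttran (17% of all peaks called) and 9 in young Ttran (16.9%), and none was lower in either. The aged calls included Mdm2_2 (1.83), Mdm2_4 (1.52), Mdm2_5 (0.73) and Cdkn2d_1 (0.32). No Mdm2 or Cdkn2d peak was called in young hosts. The call at Mdm2_2 was lost when any 1 library was left out. Those at Mdm2_4 and Mdm2_5 were lost without Tprog replicate 1, and that at Mdm2_4 also without Ttran replicate 1. At Cdkn1a_4 Ttran had 1175 and 1114 normalized reads in aged and 1268, 1298 and 1206 in young hosts, all above the Tprog libraries given earlier. At Cdkn2b_3 Ttran had 505 and 459 in aged and 364, 469 and 494 in young hosts. Both peaks were called in each host, with log2 differences, Ttran minus Tprog, of 0.47 and 0.36 at Cdkn1a_4 and of 1.05 and 0.94 at Cdkn2b_3. Cdkn1a_2, the peak over Trp53cor1, was higher in Ttran in aged hosts at 200.1 and 202 (1.09, limma adjusted p = 5.3e-05) and in young hosts at 217, 172 and 193 (1.10, limma adjusted p = 6.4e-06). Cdkn1a_3, Cdkn1a_4, Cdkn2b_3, Cdkn2b_5 and Cdkn2b_9 were higher in Ttran in all 6 repeats (1.98% of all peaks). With the other guides, the counts of Ttran against Tprog were 8 in aged (11.9% of all peaks called) and 14 in young Zfp219 hosts (23.5%), all higher in Ttran, and 13 in aged (15.2%) and 11 in young Dusp5 hosts (19.3%). Cdkn2c_3 (-0.41), Cdkn1b_2 (-0.27) and Cdkn1b_3 (-0.26) were the members lower in Ttran, in aged Dusp5 hosts. In aged OTC hosts Cdkn2b_5 was no longer called without Tprog replicate 2, where its difference came to 0.63 (limma adjusted p = 0.15). In young OTC hosts Cdkn1a_4 was no longer called without Tprog replicate 2, where its difference came to 0.23 (limma adjusted p = 0.16). These contrasts share the Tprog libraries with the preceding one.

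Between Ttran and Tterm few members were called. In aged OTC hosts limma called none (3.22% of all peaks), 7 members had an unadjusted p under 0.05, and edgeR called 0. In young OTC hosts 2 members were lower in Ttran (8.38% of all peaks called). These were the ARF-side start Cdkn2a_4, with 216, 213 and 309 in Ttran against 358, 329 and 444 in Tterm (-0.62, SE 0.13, limma adjusted p = 0.00053), and Cdkn2c_3. Cdkn2c_3 had 719, 748 and 866 in Ttran, all below the Tterm libraries (-0.30, limma adjusted p = 0.0039). Without 1 young OTC library, Ttran replicate 1, only 1 of them was called. In aged hosts limma also called 0 members under Zfp219 (1.12% of all peaks) and 0 under Dusp5 (1.74%). In young hosts it called 1 under Zfp219 (2.15%), the Cdkn2b start Cdkn2b_2, lower in Ttran (-0.47, limma adjusted p = 0.045). It called 4 under Dusp5 (8.89%): Cdkn2a_4 (-0.68), Cdkn2b_2 (-0.61), Cdkn2c_3 (-0.29) and Cdkn2d_1 (0.20). These counts lie near the shares over all peaks.

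The age-associated dysfunctional cells stood at the level of progenitors at the upstream Cdkn1a peak and above progenitors at the Cdkn2b start. At Cdkn1a_3 the aged OTC libraries had 231 and 313 normalized reads in Ttad, beside 334 and 255 in Tprog, 463 and 508 in Ttran and 577 and 640 in Tterm. Ttad overlapped Tprog and lay below both other states. The log2 difference was -1.17 from Tterm (SE 0.13, limma adjusted p = 1.2e-10), -0.85 from Ttran (SE 0.13, limma adjusted p = 3.1e-06) and -0.12 from Tprog (limma adjusted p = 0.71). Cdkn1a_4 had 1008 and 877 in Ttad, between Tprog (837 and 813) and Ttran (1175 and 1114). It was lower than in Tterm (-0.47, limma adjusted p = 0.00016) and in Ttran (-0.28, limma adjusted p = 0.039). The call against Ttran was lost in 3 of 4 fits that left out a library, without Ttad replicate 2 or either Ttran replicate (difference as little as -0.18, limma adjusted p up to 0.38).

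The Ink4 peaks were split. At the Cdkn2b start Cdkn2b_2, Ttad had 362 and 331 normalized reads, above both Tprog libraries (0.55, SE 0.17, limma adjusted p = 0.029) and overlapping Tterm (-0.01, limma adjusted p = 0.98). At the INK4A-side start Cdkn2a_3, Ttad had 112 and 91.2 against 34.0 and 61.2 in Tprog (1.13, SE 0.31, limma adjusted p = 0.013). At Cdkn2b_5 Ttad had 107 and 92.4 against 65.7 and 24.8 in Tprog (1.28, SE 0.25, limma adjusted p = 0.00029). The call at Cdkn2b_2 was lost without any 1 of the 4 libraries, and that at Cdkn2a_3 without Tprog replicate 1 or Ttad replicate 1. For Cdkn2b_5 the difference came to 0.59 (limma adjusted p = 0.28) without Tprog replicate 2. At the distal Cdkn2b_3, by contrast, Ttad had 369 and 266, above Tprog and below the 473 and 463 of Tterm (-0.58, SE 0.15, limma adjusted p = 0.0077). That call was lost without Ttad replicate 2, Tterm replicate 1 or Tterm replicate 2, where the difference came to as little as -0.34 (limma adjusted p up to 0.31).

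In counts, 5 members were lower in Ttad than in Tterm (7.28% of all peaks called), 6 lower than in Ttran (7.74%) and 3 higher than in Tprog (6.55%). In these OTC libraries no member was called in the opposite direction in the 3 comparisons, which share the Ttad libraries. Beyond the peaks above, the calls against Tterm were Cdkn2b_9 and Cdkn2c_1, and those against Ttran were Cdkn1a_2, Cdkn2b_3, Cdkn2c_1 and Mdm2_1. The count against Tterm was 3 without OTC Ttad replicate 1, Tterm replicate 1 or Tterm replicate 2. The count against Tprog was 1 without Tprog replicate 1, and the count against Ttran was 1 without Ttran replicate 1 and 3 without Ttad replicate 1. The guide libraries gave 2 more readings of each comparison. Against Tterm, 4 members were called under Zfp219 (1.75% of all peaks) and 7 under Dusp5 (7.34%). Cdkn1a_3 was at -0.66 and -1.03 and Cdkn2b_3 at -0.77 and -0.48, and both were thus lower under all 3 guides. Trp53_1 was higher in Ttad under Zfp219 (0.32, limma adjusted p = 0.017). Against Ttran, 2 were called under Zfp219 (0.802%) and 4 under Dusp5 (4.59%), with Cdkn1a_3 at -0.73 and -1.09. Against Tprog, 2 were called under Zfp219 (7.65%) and 4 under Dusp5 (7.33%), with Cdkn2b_5 at 0.85 and 1.17. The Cdkn2b start was not called against Tprog under either of these guides. The ARF-side start Cdkn2a_4 was higher in Ttad than in Tprog under Zfp219 (0.61, limma adjusted p = 0.0083).

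Over the 3 guides, the 6 Ttad libraries lay below the 6 Tterm libraries at Cdkn1a_3, Cdkn2b_3 and Cdkn2b_4, and 3.53% of all peaks did not overlap in that comparison. They lay above the 6 Tprog libraries at Cdkn2b_2 and Cdkn2b_5 (4.34% of all peaks not overlapping).

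Host age went with small differences at the starts and larger ones at weak or distal peaks. Averaged over Tprog, Ttran and Tterm, 7 members were lower and 1 was higher in aged than in young OTC hosts, where 36.5% of all peaks were called. The share of members called was below that background. The column names of aged-host and of young-host libraries repeat the same run of numbers, and the labels do not say what these mark. The labels name no batch, and a batch that went with host age could not be told apart from it. No Cdkn2b peak was called with age within OTC Tterm alone. Cdkn2b_5 had lower values in aged hosts within each state. Its OTC libraries had 65.7 and 24.8 normalized reads in aged and 73.8 and 67.6 in young Tprog, 93.3 and 112 in aged and 162, 201 and 191 in young Ttran, and 112 and 134 in aged and 184, 148 and 183 in young Tterm. The mean log2 difference, aged minus young, was -0.70 (SE 0.14, limma adjusted p = 1.8e-05) with OTC. It was -0.54 in the Zfp219 libraries and -0.89 in the Dusp5 libraries, both called, on separate libraries.

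Near Cdkn1b, the distal Cdkn1b_4 (chr6:134932602-134932924), 7077 bp past the gene, had 52.1 and 44.4 normalized reads in aged Tprog against 96.7 and 97.5 in young Tprog. It had 31.6 and 27.1 in aged Ttran against 67.1, 50.03 and 60.2 in young Ttran. The aged libraries were lower in each state, with a mean log2 difference of -0.90 (SE 0.19, limma adjusted p = 5.4e-05). No Cdkn1b peak was called with age within OTC Tterm alone. The p27 start Cdkn1b_2 was lower by a small amount (-0.17, SE 0.05, limma adjusted p = 0.0014), as were Cdkn2c_3 (-0.17, limma adjusted p = 0.0045) and Cdkn1a_4 (-0.16, limma adjusted p = 0.0071). Mdm2_4 (-0.56) and Mdm2_5 (-0.31) complete the lower calls. The call at Mdm2_4 was lost without aged Tprog replicate 1, aged Ttran replicate 2 or young Tprog replicate 2, and that at Cdkn1a_4 without young Tprog replicate 1. The member that was higher in aged hosts, Cdkn1a_1, had a mean of 13.3 normalized reads over all libraries. Neither start of Cdkn2a, whose INK4A product is the usual marker of ageing tissue, was called with age in OTC hosts. No member had all 6 aged OTC libraries on one side of the 8 young ones, and 6.59% of all peaks did. Of the 105 tests within single states, 9 were called, all lower in aged hosts (17.5% of such tests over all peaks). Tprog had 5 of them (15.4% of all peaks called), Ttran 2 (18.3%) and Tterm 2 (18.9%). In the Zfp219 libraries 4 members were called with age (30.3% of all peaks) and in the Dusp5 libraries 6 (31.8%). Of the Dusp5 calls 5 were lower in aged hosts: Cdkn2c_1 (-0.95), Cdkn2b_5, Cdkn2a_2 (-0.36), Cdkn1a_2 (-0.36) and Cdkn2d_1 (-0.10). Of the Zfp219 calls Cdkn2b_5 was lower and Cdkn1a_1 was higher (0.99). The Mdm2 start was higher in aged hosts in both, by 0.15 and 0.22, and the ARF-side start Cdkn2a_4 in the Zfp219 libraries, by 0.35 (SE 0.09, limma adjusted p = 0.0012).

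In aged hosts the members called for the Zfp219 guide were all higher, at about the share of calls found over all peaks. Averaged over the 4 aged states, 9 members were higher with the Zfp219 guide than with OTC and none was lower, where 25.8% of all peaks were called and 12.1% were higher. Among peaks with a mean of at least 50 normalized reads, 8 of 24 members were called, against 33.7% of such peaks. Start peaks made up most of the 9: Cdkn1a_4 (log2 difference 0.12), Cdkn1b_2 (0.13), Cdkn2a_4 (0.29), Cdkn2b_2 (0.25), Cdkn2c_3 (0.18) and Mdm2_3 (0.19). The starts Cdkn2a_3, Cdkn2d_1 and Trp53_1 were not called. At Cdkn1b_2 the 8 aged OTC libraries ran from 844 to 984 normalized reads with a median of 934, and the 8 aged Zfp219 libraries from 997 to 1043 with a median of 1012. These ranges do not overlap (SE 0.04, limma adjusted p = 0.011). The share of all peaks that separate in this way was not counted. At Cdkn2c_3 the OTC libraries ran from 623 to 800.05 with a median of 770.4 and the Zfp219 libraries from 721 to 924 with a median of 862 (SE 0.05, limma adjusted p = 0.0015).

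On the ARF side of Cdkn2a, Cdkn2a_4 had a median of 275 normalized reads in aged OTC libraries (222 to 349) and of 373 in aged Zfp219 libraries (223 to 393). The ranges overlap, with both Zfp219 Tprog libraries, at 223 and 276, within the OTC range. The 6 other Zfp219 libraries were at 341 to 393, and the mean difference was called (SE 0.08, limma adjusted p = 0.0046). By state the log2 differences were 0.03 (Tprog), 0.41 (Ttran), 0.23 (Tterm) and 0.48 (Ttad), and none of these 4 passed on its own. The weaker peaks Cdkn2c_1 (0.86), Cdkn1b_4 (0.62) and Mdm2_4 (0.51) complete the 9. The calls at Cdkn1b_2, Cdkn1b_4, Cdkn2a_4, Cdkn2c_3 and Mdm2_3 were made without any 1 of the 16 libraries as well, while that at Cdkn1a_4 was lost in 9 of the 16 fits, those at Mdm2_4 and Cdkn2c_1 in 7 each and that at Cdkn2b_2 in 2. The count was 5 without aged OTC Ttran replicate 2.

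In young hosts limma called no member for the Zfp219 guide averaged over states (7.07% of all peaks), 6 had an unadjusted p under 0.05, and edgeR called 3. The difference between hosts in the effect of the Zfp219 guide was called at 2 members (9.11% of all peaks), Cdkn1b_4 and Mdm2_5. The Zfp219 effect in Ttad differed from that in the other aged states at 0 members (0.052% of all peaks), with 5 at an unadjusted p under 0.05 and 0 called by edgeR.

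Within single states 8 of 245 tests of the Zfp219 guide were called (5.1% over all peaks). Among aged hosts Tprog gave 1 call (2.56% of all peaks), Ttran 3 (14.2%), Tterm 0 (3.57%, with 2 at an unadjusted p under 0.05) and Ttad 3 (8.23%). They were Mdm2_4 in Tprog (1.40), then Cdkn2c_3 (0.29), Cdkn1b_4 (1.0) and, the member that was lower, Cdkn2d_1 (-0.25) in Ttran. In Ttad they were Cdkn1a_4 (0.27), Trp53_1 (0.31) and the faint Cdkn2c_1 (2.47). In young hosts 0 members were called in Tprog (0.997%), 1 in Ttran (5.88%) and 0 in Tterm (0.275%). In Tprog 6 members and in Tterm 1 had an unadjusted p under 0.05. The young call was Cdkn2c_3 in young Ttran, with 719, 748 and 866 in OTC libraries and 899.8, 928 and 1009 in Zfp219 libraries (0.29, SE 0.07, limma adjusted p = 0.0097).

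The Dusp5 guide left the members close to control. It was compared with the same OTC libraries as the Zfp219 guide, so the results of the guides are not independent. Averaged over states, 1 member was lower in aged hosts (12.2% of all peaks called) and 1 in young hosts (3.82%). In aged hosts this was the Cdkn2d start, with 1533 to 2007 normalized reads in 8 OTC libraries (median 1744) and 1437 to 1743 in 8 Dusp5 libraries (median 1631). The log2 difference was -0.12 (SE 0.03, limma adjusted p = 0.016), with overlapping ranges. In young hosts it was the Trp53 start, with 1295 to 1529 in 8 OTC libraries (median 1342) and 1055 to 1343 in 8 Dusp5 libraries (median 1249), a difference of -0.15 (SE 0.04, limma adjusted p = 0.02). Within single states 2 of 245 tests were called (1.9% over all peaks). Among aged hosts Tprog gave 0 calls (0.83% of all peaks, 7 at an unadjusted p under 0.05), Ttran 0 (3.8%, 2 at that p), Tterm 1 (4.11%) and Ttad 1 (2.88%). Among young hosts Tprog (0.782%), Ttran (0.646%) and Tterm (0.273%) gave 0 calls each, where 4, 3 and 3 members had an unadjusted p under 0.05. The call in aged Tterm was the Trp53 start (-0.29, SE 0.08, limma adjusted p = 0.024), and the call in Ttad the faint Cdkn2c_1. The young call at the Trp53 start averaged over states was lost in 5 of 16 fits that left out a library (limma adjusted p up to 0.12) and with quantile normalization. The aged call at the Cdkn2d start was lost in 2 of 16 such fits and with quantile normalization, where the difference came to -0.0025 (limma adjusted p = 0.98). Each of these counts is at or below the share over all peaks. In Ttad against the other aged states the Dusp5 effect differed at 1 member, Cdkn2c_1 (0.169% of all peaks). The difference between hosts in the Dusp5 effect was called at no member (4% of all peaks), while 7 had an unadjusted p under 0.05 and edgeR called 0.

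**Figure D5:**
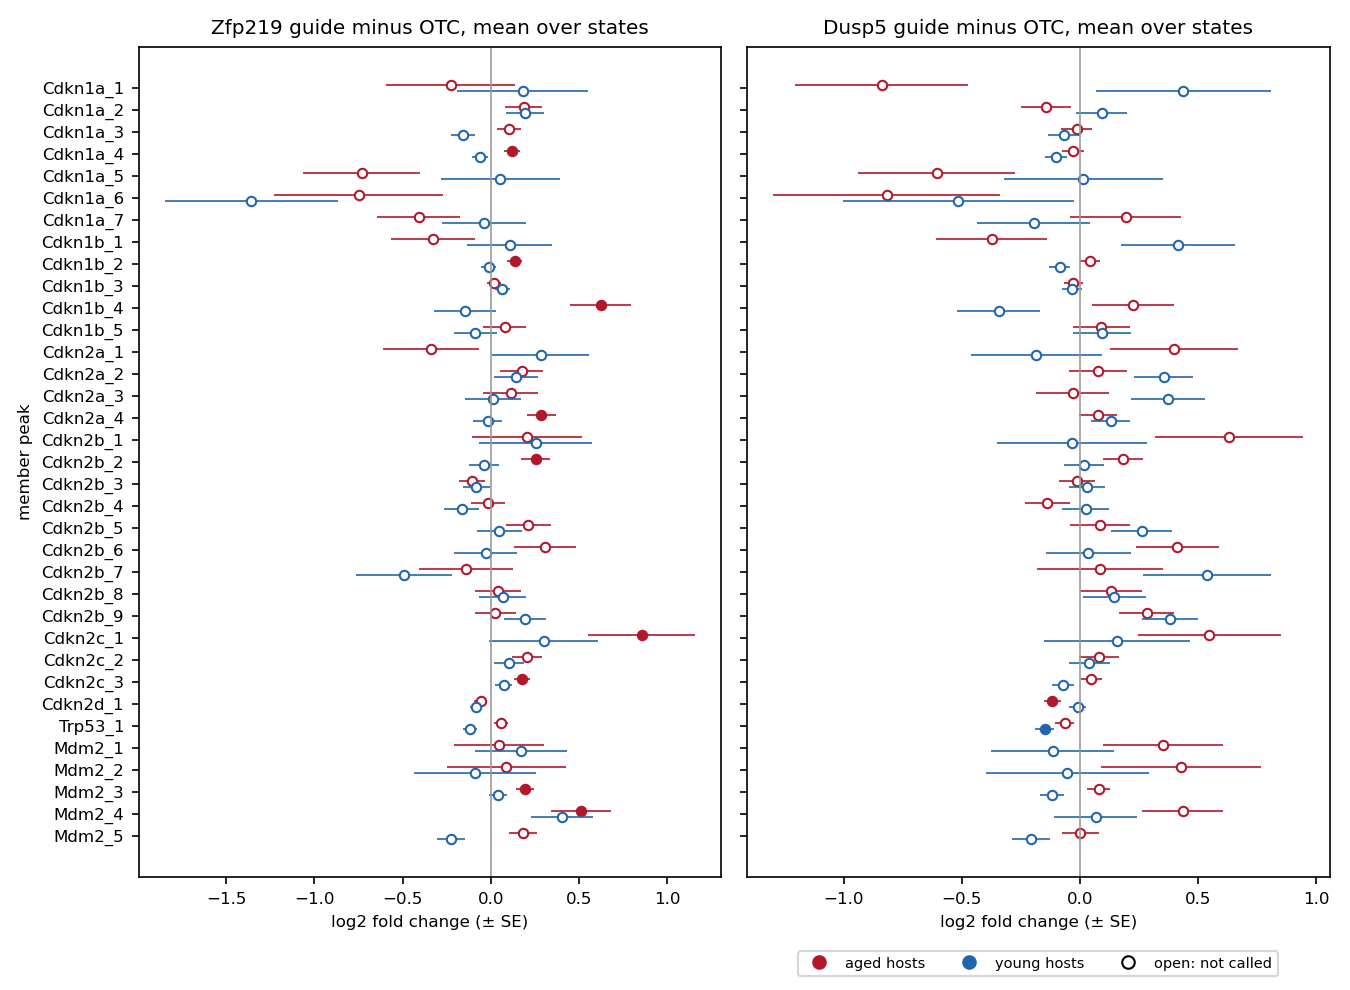
Log2 difference from OTC, averaged over states, of the 35 member peaks for the Zfp219 and the Dusp5 guide in aged and young hosts; filled points passed the test. Filled points lie to the right of 0 for Zfp219 in aged hosts, with 9 of them, while Dusp5 has 1 in each host.

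Other genes of the pathway did not share 1 direction between the exhaustion states, where 20.1% of all peaks were called in aged and 26.5% in young OTC hosts. Cyclins, kinases, retinoblastoma proteins and E2F factors (21 genes, 112 peaks) had 3 peaks higher and 25 lower in Tprog than in Tterm in aged OTC hosts, and 9 higher and 22 lower in young hosts. Genes that p53 activates (18 genes, 84 peaks) had 10 higher and 9 lower in aged hosts, and 18 higher and 10 lower in young hosts. Regulators of p53 (9 genes with a peak, 33 peaks) had 2 higher and 4 lower in aged and 1 higher and 3 lower in young hosts. Regulators of the inhibitor loci (14 genes, 103 peaks) had 10 higher and 11 lower in aged and 14 higher and 15 lower in young hosts. Senescence readouts (5 genes, 38 peaks) had 7 higher and 7 lower in aged hosts, and 12 higher and 3 lower in young hosts. With the Zfp219 guide in aged hosts, the cyclin, kinase, retinoblastoma and E2F genes had 19 peaks higher and 9 lower than OTC (25% called). The p53-activated genes had 5 higher and 15 lower (23.8%), and the regulators of p53 had 3 higher and 7 lower (30.3%). Regulators of the inhibitor loci had 10 higher and 12 lower (21.4%). Over all peaks 25.8% were called.

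Across the 21 group means the members followed each other to different degrees. These are descriptions over groups that share hosts, guides and states. Pearson's r was 0.934 between Cdkn1a_3 and Cdkn1a_4, 0.941 between Cdkn2b_3 and Cdkn2b_9, 0.897 between Cdkn1a_3 and Cdkn2b_3 and 0.891 between the ARF-side start and the Cdkn2b start. Among peaks of other genes, the pattern of Cdkn1a_4 was nearest to peaks at C5ar1, a complement receptor (r = 0.955), Id2, an inhibitor of E-protein transcription factors (r = 0.954), and Rassf1 (r = 0.952). Cdkn2b_3 was nearest to peaks at Ift22 (r = 0.970), Lamc1, a laminin chain (r = 0.970), and Gsap (r = 0.969). Cdkn2a_4 was nearest to peaks at H2-DMa, an antigen-loading factor (r = 0.915), Cers5 (r = 0.913) and Minpp1 (r = 0.912). Mdm2_3 was nearest to peaks at Sesn1, a p53-activated gene (r = 0.904), Fau (r = 0.898) and Snx5 (r = 0.895). The nearest neighbours were weaker at Cdkn1b_3, with r = 0.819 to a peak at Nup153, and at Trp53_1, with r = 0.802 to a peak at Tmem192. The Cdkn2d start, also narrow in its range over groups, had r = 0.917 with a peak at Opa3.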

How the data were processed

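ATAC-seq was measured in 48 libraries of OT-1 CD8+ T cells (50 bp reads). The deposited table holds 1 normalized signal per peak and library. Every value was a whole number of reads times 1 factor of its library (tolerance 0.01 reads), so the authors divided whole reads by a size factor. The submitters' processing notes list Bowtie2 2.2.9, Picard 2.8.0, SAMtools 1.3.1, MACS2 2.1.1, DESeq2 1.28.1 and mm10, with no role or order; the peak calling itself is not given in the sources used here, nor is whether replicates were pooled for it.

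Peaks were assigned to RefSeq genes of GRCm38.p6. The test was limma 3.58.1 in R 4.3.3 on log2(value + 1) with a trend and 21 group means over all libraries, adjusted over 53868 peaks at 0.05. It was tested on simulated data. Alternatives were a pseudocount of 8, leaving out the weakest 25% of peaks, quantile normalization, library quality weights, a replicate block, the compared groups alone, edgeR 4.0.16 on the recovered whole reads, leaving out each library, and assignment within 10000 bp. The members, gene lists and tests were chosen with earlier results of these data known. The rule for named peaks took each gene's strongest peak and its start peaks, up to 3 called members with the largest log2 difference per comparison and, for each gene's strongest peak, the 3 peaks of other genes with the highest Pearson r (mean of at least 50 normalized reads). Other member peaks were named after their values were seen. Reads are PCR products without molecular identifiers, so depth describes counting error only, and p-values measure the spread between pooled libraries.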

Additional observations from a re-analysis of the deposited data

Results flagged for a closer look

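A difference between groups in the size of a guide effect was called at 3 members. The effect of the Zfp219 guide at Cdkn1b_4 was larger in aged than in young hosts by 0.89 on the log2 scale (SE 0.27, limma adjusted p = 0.019). Its levels were 31.6 and 27.1 normalized reads in aged OTC Ttran and 78.6 and 44.9 in aged Zfp219 Ttran, against 67.1, 50.03 and 60.2 and 57.3, 48.1 and 50.7 in young hosts. The call was lost without aged Zfp219 Tterm replicate 2 or aged Zfp219 Ttran replicate 1. At Mdm2_5 the difference between hosts was 0.37 (SE 0.12, limma adjusted p = 0.035), and it was lost in 11 of the 28 fits that left out 1 library.

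The effect of the Dusp5 guide in Ttad differed from that in the other aged states at Cdkn2c_1 (chr4:109649433-109649693), by 3.10 (SE 0.70, limma adjusted p = 0.027). This faint peak had 1.68 and 4.93 normalized reads in OTC Ttad and 27.8 and 28.4 in Dusp5 Ttad. The Zfp219 Ttad libraries had 28.8 and 15.4, so the OTC Ttad libraries were the low ones. The call was lost with 5 alternatives and in 4 of 16 fits that left out 1 library.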

How the results depend on the processing

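No call that was followed singly reversed its direction. Only 26 of these calls could be followed with the weakest 25% of peaks left out. With the weakest 25% of peaks left out, 1 member was called for aged Ttran against Tterm, 5 for Ttad against Tprog, 1 for young Zfp219, 2 for young Dusp5 and 0 for Dusp5 in Ttad against the other states. Quantile normalization gave 1 for young Zfp219, 0 for aged Dusp5, 0 for young Dusp5 and 1 within states for Dusp5. Library quality weights gave 2 for Ttad against Ttran, 4 for young Ttran against Tterm, 2 for young Dusp5 and 0 for Dusp5 in Ttad. The compared groups alone gave 3 for Ttad against Tterm, 2 for Ttad against Ttran, 5 for young Ttran against Tterm, 2 for young Zfp219, 3 for young Dusp5, 5 within states for Zfp219 and 0 for Dusp5 in Ttad. edgeR gave 3 for young Zfp219, 2 for young Dusp5 and 0 for Dusp5 in Ttad, and a pseudocount of 8 gave 0 for the last. Cdkn2c_1, the call for Dusp5 in Ttad, is among the weakest 25% of peaks, so the 0 under that setting was fixed by the filter. The cause of the other moves was not tested.

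Leaving out each library gave 8 to 10 calls for Tprog against Tterm in aged and 11 to 15 in young hosts, 8 to 10 and 7 to 9 for Ttran against Tprog, and 0 to 0 and 1 to 3 for Ttran against Tterm. It gave 3 to 4, 1 to 3 and 1 to 4 for Ttad against Tterm, Tprog and Ttran. For host age it gave 6 to 10 on average and 6 to 10 within states. For Zfp219 it gave 5 to 11 in aged hosts, 0 to 1 in young hosts, 5 to 11 within states, 0 to 3 between hosts and 0 to 1 in Ttad. For Dusp5 it gave 0 to 3, 0 to 2, 1 to 3, 0 to 1 and 0 to 1 for the same comparisons.

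With the replicate block, Tprog against Tterm gave 11 calls in aged and 16 in young hosts. Same-numbered libraries did not deviate together (correlations from -0.0148 to 0.0146 in aged and from -0.0167 to 0.0117 in young hosts), so the numbers were not taken as pairs. Of 34 calls followed singly, the block ended 1, Mdm2_2 in aged Ttran against Tprog (limma adjusted p = 0.0519), edgeR ended 2, the compared groups alone 7, library quality weights 5, quantile normalization 4 and a pseudocount of 8 ended 3. Leaving out the least favourable single library ended 20 of the 34. With peaks assigned only within 10000 bp, 22 members were left and 6 were called for aged Tprog against Tterm. Peaks under about 50 normalized reads, such as Cdkn2c_1, Mdm2_1, Mdm2_2 and Cdkn1a_1, are limited by depth.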
